A study of Mus musculus with 8 samples.

Results

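Methylation of CpG dinucleotides was described around 9 genes of mouse myeloid lineage transcription factors in hematopoietic stem cells, sorted from the bone marrow of C57BL/6 mice and not cultured. The genes were Cebpa, Cebpb, Cebpd, Cebpe, Spi1, Gfi1, Gfi1b, Klf4 and Egr1. Each gene window ran from 5 kb before to 5 kb after the gene, and a CpG was kept when at least 3 mice of each group had at least 10 reads over it. This kept 946 CpGs of the 1904 listed there for any mouse, out of 1306811 CpGs kept over the whole series. All 9 symbols were found in the RefSeq gene table.

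The study compared 4 Atg12 conditional knockout (cKO) mice, Atg12fl/fl with Mx1-cre, against 4 control mice. Atg12 is a protein of the autophagosome-forming machinery, and Mx1-cre is driven by an interferon-inducible promoter that is active in blood cells and in other tissues. Mice of both groups were given poly(I:C), an interferon inducer, at 4 weeks of age, and stem cells were sorted as Lin-, Flk2- and CD48- cells that carried c-Kit, Sca-1 and CD150, from single mice 2 to 3 months later. For the controls, the study's design names the loxP-flanked alleles without Cre while their genotype label reads WT, which leaves their loxP status unclear. Every library was made from 1 mouse, with mouse numbers 25, 28, 45 and 46 in the cKO group and 1, 34, 36 and 37 in the control group. Values are given in that order of mice throughout. The assay was enhanced reduced representation bisulfite sequencing (ERRBS), which reads the methylation of CpG-rich restriction fragments. The level of a CpG is the percentage of its reads that are methylated, and differences are in percentage points, cKO minus control.

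Blood cells of the granulocyte and monocyte lineages arise from stem cells through progenitors in which a small set of DNA-binding proteins switches lineage genes on or off. The C/EBP proteins and PU.1, the product of Spi1, activate myeloid genes together, Gfi1 and Gfi1b are closely related repressors, and Klf4 and Egr1 act on the monocyte side. CpG-dense regions at the start of such regulator genes are commonly unmethylated in cells whether or not the gene is active, while methylation in gene bodies and at distal elements is more variable.

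The libraries differed in ways that bear on the values below. They listed from 2038266 cytosines (cKO mouse 45) to 3366162 (cKO mouse 25), and the median coverage of the CpGs kept around the 9 genes ranged from 238 to 386 reads. The mean coverage of CpGs over 90% methylated in all 8 mice, divided by that of CpGs under 5% in all 8, was 0.433, 0.591, 0.637 and 0.574 in cKO mice and 0.825, 0.365, 0.748 and 0.684 in control mice. Control mouse 34 and cKO mouse 25 therefore stood lowest. Chromosome Y held 7.90 to 9.01 of every 10000 listed cytosines in cKO mice and 1.15 to 1.83 in control mice, while chromosome X held 1.83 to 1.93% in cKO mice and 2.42 to 2.54% in control mice. Genotype and this sex-chromosome content coincide in all 8 mice, and their effects cannot be told apart. Over the marker genes of other bone marrow cells, the mean levels of the groups lay within 1 SD of each other for neutrophil, B cell and T cell genes. They were 58.5 ± 0.869% in cKO mice against 58.7 ± 2.68% in control mice for the 4 neutrophil genes measured of 8 listed (SD, n = 4 each). They were 37.3 ± 1.71% in cKO mice against 37.5 ± 2.53% in control mice for 5 B cell genes, and 48.8 ± 2.01% in cKO mice against 48.7 ± 1.37% in control mice for 3 T cell genes. For 4 erythroid genes the levels were 41.7 ± 2.82% in cKO mice and 43.8 ± 1.58% in control mice. The surface-marker identity of the sorted cells is not measured by these data.

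Most CpGs around the 9 genes were unmethylated in both groups. Of the 946 kept CpGs, 817 (86.4%) had a mean level under 10%, 76 (8.03%) lay from 10 to 90% and 53 (5.60%) lay over 90%. Over all kept autosomal CpGs the shares were 58.1%, 14.4% and 27.5%. The spread between mice depended on the class. For CpGs under 10% that had a value in every mouse, the range over the 8 mice had a median of 0.485 points. For those from 10 to 90% that median was 40.9 points, and it was 15.6 points for those over 90%. Of the 583 single-mouse values of the intermediate CpGs, 49 were exactly 0% and 53 exactly 100%. Coverage counts reads and not DNA molecules, and no molecular identifiers are described, so the number of cells behind a level is not known.

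No single CpG, 1 kb window or gene window of the 9 genes differed between cKO and control mice after adjustment over the genome. Of 114 CpGs with a mean level from 5 to 95%, 0 were called at an adjusted p under 0.05 in a moderated quasi-binomial model, where 0.00637% of all 313880 tested CpGs were called. At an unadjusted p under 0.05, 14 of the 114 (12.3%) passed, against 6.51% of all tested CpGs. These were 5 lower in cKO mice (4.39% of the 114, against 4.11% of all tested) and 9 higher (7.89%, against 2.4%), and all 9 higher ones lay within 1 stretch of Gfi1. The smallest adjusted p was 0.716. The groups did not overlap at 3 CpGs (2.63%), 2 lower and 1 higher in cKO mice, against 3.14% of all tested CpGs, of which 1.54% were lower and 1.59% higher. On average 46 of the 114 (40.4%) were lower in cKO mice, against 53.7% of all. Gfi1 held 39 of the 114, 34 of them higher and 5 lower, so this share is weighted by 1 gene. Limma on log2 read ratios and the unmoderated model, run as alternatives, called 0 CpGs over the whole genome.

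Of 40 fixed 1 kb windows with at least 3 CpGs read in all 8 mice, 23 lay under 5%, 5 over 95%, and 12 were tested. None of the 12 was called by the same model, where 0% of the 40021 windows tested over the genome were. An unadjusted p under 0.05 was reached by 2 windows (16.7%, against 6.5% of all), 1 lower in cKO mice, where the share over the genome was 4.4%, and 1 higher, where it was 2.1%. The groups did not overlap in 1 tested window, higher in cKO mice (8.33%, against 3.49% of all, 2.01% lower and 1.48% higher). On average 6 tested windows were lower and 6 higher, against 52.6% lower and 47.4% higher over the genome. Among untested windows, the groups were apart in chr5:107725001-107726000, lower in cKO mice, and in chr2:167695001-167696000, higher. The latter had 98.6 ± 1.14% in cKO mice and 95.5 ± 0.652% in control mice (SD, n = 4 each). It overlaps the end of the Cebpb gene window at chr2:167695432, but its 8 CpGs lie past that end. The share of untested windows with groups apart was not counted over the genome. For whole gene windows, averaged over CpGs with equal weight, 6 of the 9 genes were in the tested range and 0 were called by limma, as were 0% of the 12420 tested gene windows. Gfi1 alone had an unadjusted p under 0.05, with a higher level in cKO mice, and over the genome 4.38% of tested gene windows did, 2.73% lower and 1.65% higher. All 9 genes had groups that overlapped, while 2.71% of tested gene windows over the genome had groups that did not, 1.58% lower and 1.13% higher in cKO mice.

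**Figure D1:**
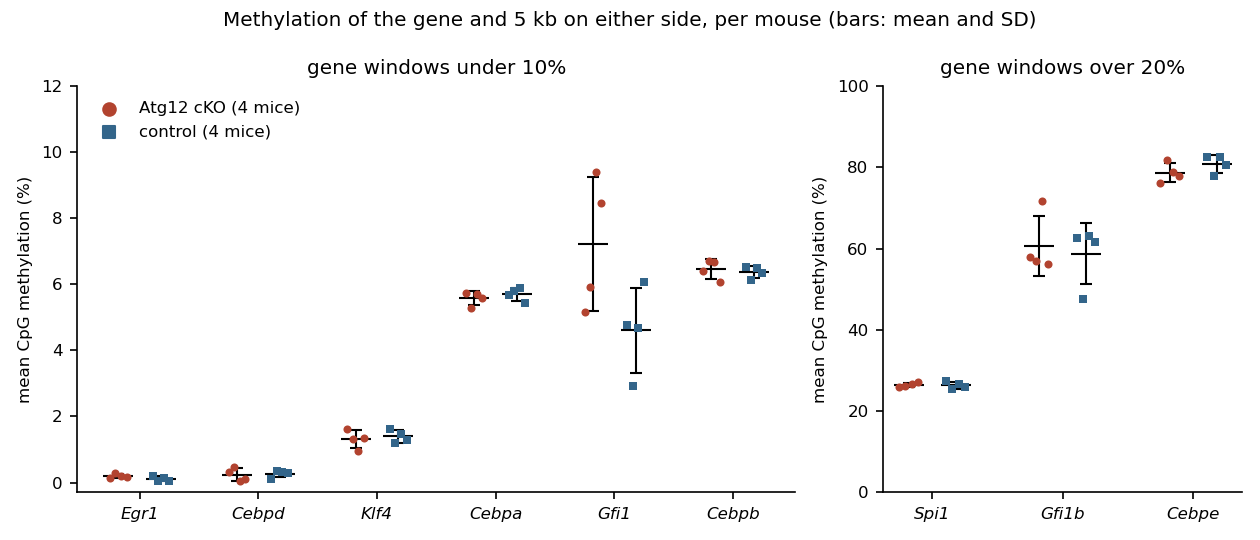
Mean CpG methylation (%) of the gene and 5 kb on either side for each mouse, with Atg12 cKO mice (circles) left of control mice (squares) for each gene and bars for mean and SD. Genes run by level from Egr1 to Cebpe in 2 panels with different scales, and the groups overlap for every gene, with the widest gap between means for Gfi1.

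The 9 gene windows fell into a low and a high class. Egr1, Cebpd and Klf4 lay lowest, then Cebpa, Gfi1 and Cebpb under 10%, and Spi1, Gfi1b and Cebpe lay above 20%. Of 16114 protein-coding gene windows measured, whose median level was 18.9%, 2.81% were lower than Egr1, 6.32% lower than Cebpd, 10.3% lower than Klf4, 22.3% lower than Cebpa, 23.0% lower than Gfi1 and 24.4% lower than Cebpb. The shares were 60.3% for Spi1, 83.8% for Gfi1b and 89.9% for Cebpe. Among neighbours in this order, the single-mouse values of Egr1 and Cebpd overlapped, and those of Gfi1 overlapped with Cebpa and with Cebpb. The other neighbours were apart in all 8 mice. The low windows were those with many kept CpGs: 17.3 per kb for Cebpb, 14.2 for Cebpa, 11.2 for Klf4, 8.24 for Cebpd, 7.52 for Gfi1 and 4.22 for Egr1, against 1.69 for Cebpe, 1.24 for Spi1 and 0.843 for Gfi1b. That order is a description over 9 genes, in which read density and the choice of fragments by the assay are shared.

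**Figure D2:**
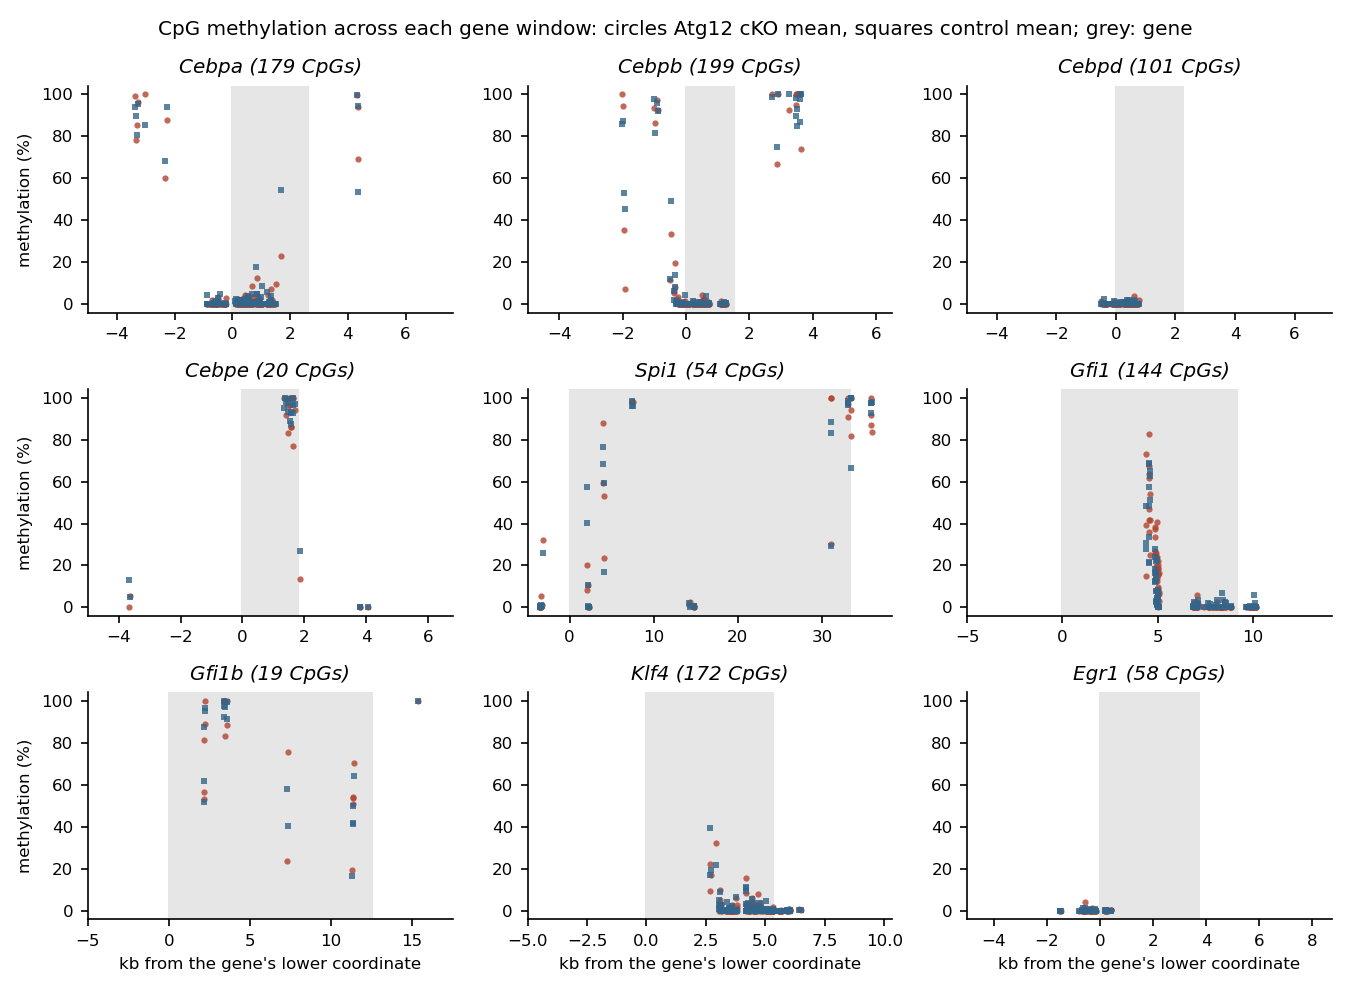
Methylation (%) of every kept CpG across the 9 gene windows, as the mean of Atg12 cKO mice (circles) and of control mice (squares), against the distance in kb from the gene's lower coordinate, with the gene in grey. Cebpd and Egr1 hold only CpGs near 0%, Cebpa, Cebpb, Gfi1 and Klf4 hold a dense unmethylated stretch, and Cebpe and Gfi1b are mostly methylated.

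Cebpa, whose product is needed for granulocyte and monocyte progenitors to form, lies at chr7:35119293-35121928 (mm10). Its window had 5.74, 5.28, 5.71 and 5.58% methylation in cKO mice and 5.67, 5.79, 5.89 and 5.45% in control mice. The groups overlapped, at 5.58 ± 0.208% in cKO mice and 5.70 ± 0.191% in control mice (SD, n = 4 each). The difference of -0.12 points had an unadjusted limma p of 0.502 and an adjusted p of 0.997, and was 0.09 when CpGs read in only 3 mice of a group were included. Of its 179 kept CpGs, 168 were under 10%, and these formed 1 unbroken run of 2410 bp around the start. Their mean was 0.724% in cKO mice and 0.781% in control mice. CpGs over 10% stood outside this run, 7 of them upstream at a mean of 86.8% in both groups, 1 inside the gene at chr7:35120960 with 36.4%, and 3 from 4305 bp downstream of the start on, at 87.6% in cKO mice and 82.6% in control mice. The start region is shown because it holds 5 kept CpGs of that run, in capitals, among 29 CpGs in its 300 bases. It is RefSeq sequence of GRCm38.p6, chr7:35119043-35119342, plus strand, written 5′ to 3′.
Cebpa start: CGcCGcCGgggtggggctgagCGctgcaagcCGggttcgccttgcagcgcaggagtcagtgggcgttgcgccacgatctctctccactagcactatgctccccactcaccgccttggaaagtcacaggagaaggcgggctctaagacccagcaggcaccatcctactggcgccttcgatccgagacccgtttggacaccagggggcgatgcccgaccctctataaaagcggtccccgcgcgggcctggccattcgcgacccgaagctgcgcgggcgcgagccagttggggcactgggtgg
In the 3 of these CpGs read in every mouse, the mean was 0.0874% in cKO mice and 0.199% in control mice. A single CpG could still vary widely: at chr7:35123652, downstream of the gene, the levels were 44.9, 87.3, 75.4 and 69.0% in cKO mice and 33.2, 79.3, 66.6 and 34.1% in control mice. This was the Cebpa CpG with the smallest p (unadjusted 0.0957, adjusted 0.776 in the quasi-binomial model), and both groups covered most of the same range. Its 1 kb window, chr7:35123001-35124000, had 88.6 ± 4.07% in cKO mice and 85.8 ± 6.06% in control mice (SD, n = 4 each), and the groups overlapped. Both differences moved with single mice. The CpG's 15.8 points ranged from 9.14 (without control mouse 1) to 24.5 (without control mouse 34), with 9.43 without control mouse 37, 9.79 without cKO mouse 28, 23.9 without cKO mouse 25 and 32.6 without cKO mouse 25 and control mouse 34 together. The window's 2.80 points ranged from 0.835 (without control mouse 37) to 5.12 (without control mouse 34), with 0.939 without cKO mouse 28, 1.41 without control mouse 1 and 4.98 without cKO mouse 25 and control mouse 34.

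Cebpb, which takes part in granulocyte production under infection, lies at chr2:167688915-167690432. Its window had 6.40, 6.71, 6.67 and 6.07% in cKO mice and 6.52, 6.14, 6.49 and 6.35% in control mice. The means of 6.46 ± 0.294% in cKO mice and 6.38 ± 0.174% in control mice (SD, n = 4 each) overlapped, with an unadjusted limma p of 0.673 and an adjusted p of 0.997. The difference of 0.09 points changed sign when control mouse 34 was left out (-0.05) and under 3 other settings. Of its 199 kept CpGs, 176 were under 10%, with 174 of them in 1 run of 1611 bp at a mean of 0.354% in cKO mice and 0.210% in control mice. Within that run, cKO mouse 28 stood apart in the 93 CpGs of chr2:167689001-167690000, at 1.59%. The other cKO mice had 0.0833 to 0.170% there and control mice 0.0531 to 0.253%. The start region is shown because it had the most kept CpGs of these start regions: 42 of its 50 CpGs were kept, in capitals, and 99.1% of RefSeq start regions of that length hold fewer CpGs. It is chr2:167688665-167688964, plus strand.
Cebpb start: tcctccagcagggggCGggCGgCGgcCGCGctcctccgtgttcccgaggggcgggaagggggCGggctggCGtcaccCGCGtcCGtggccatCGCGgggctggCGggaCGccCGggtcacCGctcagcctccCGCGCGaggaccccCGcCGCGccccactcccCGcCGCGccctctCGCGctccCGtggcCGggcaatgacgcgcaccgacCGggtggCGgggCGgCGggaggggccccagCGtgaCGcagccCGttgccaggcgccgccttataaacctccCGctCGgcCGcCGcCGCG
Over these 42 CpGs the mean level was 0.143 ± 0.0909% in cKO mice and 0.184 ± 0.109% in control mice (SD, n = 4 each), and the highest value of any CpG in any mouse was 12.8%. The start of Cebpb was thus unmethylated in all 8 mice. Upstream of it stood CpGs with divergent single-mouse values. At chr2:167687001, 1914 bp before the gene, the levels were 0, 0, 29.6 and 0% in cKO mice and 64.9, 0, 55.2 and 62.2% in control mice, on 41 to 429 reads. Cebpb had its smallest p here (unadjusted 0.0181, adjusted 0.756), with 3 control mice far above every cKO mouse and control mouse 34 at 0%. The difference of -38.2 points was -53.4 without control mouse 34 and -50.9 without that mouse and cKO mouse 25, and neither was called. The 1 kb window that holds it, chr2:167687001-167688000, had 70.4 ± 11.2% in cKO mice and 76.0 ± 17.5% in control mice (SD, n = 4 each) over 3 CpGs. That difference of -5.59 points ranged from -0.80 (without control mouse 1) to -13.9 (without control mouse 34) with 1 mouse left out. It was -10.1 without cKO mouse 25, -2.25 without cKO mouse 45, -2.77 without cKO mouse 46, -2.26 without control mouse 36 and -18.3 without cKO mouse 25 and control mouse 34. The 12 kept CpGs on the other side lay in the lncRNA gene A530013C23Rik at a mean of 93.9%.

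Cebpd, an acute-phase member of the family that inflammatory signals induce, lies at chr16:15887286-15889545. All its 101 kept CpGs were under 10%, in 1 run of 1260 bp in which the highest CpG averaged 2.88%. The window had 0.313, 0.467, 0.0598 and 0.118% in cKO mice and 0.106, 0.337, 0.315 and 0.300% in control mice. At 0.239 ± 0.186% in cKO mice and 0.264 ± 0.107% in control mice (SD, n = 4 each) it was below the tested range, and the exact two-sided permutation p was 0.8. With 70 arrangements of 4 against 4 mice this test cannot go below 0.0286. The difference of -0.03 points was 0.0337 without cKO mouse 45 and 0.0153 without cKO mouse 46.

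Cebpe, which acts in the last steps of granulocyte maturation, lies at chr14:54710363-54712174 and was the most methylated of the 9. Its window had 76.1, 81.7, 78.9 and 77.9% in cKO mice and 82.7, 77.8, 82.5 and 80.5% in control mice. The means were 78.7 ± 2.34% in cKO mice and 80.9 ± 2.25% in control mice (SD, n = 4 each), a difference of -2.20 points with an unadjusted limma p of 0.207 and an adjusted p of 0.997. It turned to 2.64 points when CpGs read in only 3 mice of a group were included, and to 0.09 when reads were summed over the window. Of only 20 kept CpGs, 11 were over 90%, and 15 stood together at chr14:54711713-54712222, at the gene's upper end, at a mean of 88.2% in cKO mice and 90.5% in control mice. At higher coordinates, outside the gene, 3 CpGs were at 0% in every mouse that had reads. The CpG with the smallest p was chr14:54706701, 3662 bp outside the gene, with 0, 0 and 0% in cKO mice 25, 28 and 46 and no value in cKO mouse 45, against 5.41, 13.8, 18.2 and 15.3% in control mice. The groups did not overlap at this CpG, read 64 to 209 times a mouse. The unadjusted p was 0.0248 and the adjusted p 0.757. In the tested 1 kb window, chr14:54712001-54713000, the levels were 78.4 ± 12.7% in cKO mice and 82.9 ± 10.5% in control mice (SD, n = 4 each), a difference of -4.51 points that was 1.51 without cKO mouse 25. It was -8.13 without cKO mouse 46, -9.27 without control mouse 34, -1.74 without control mouse 36 and -2.06 without control mouse 37.

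Spi1 encodes PU.1, which is needed for both myeloid and lymphoid development, and lies at chr2:91082374-91115759. Its window had 25.8, 26.1, 26.7 and 27.0% in cKO mice and 27.4, 25.4, 26.8 and 25.9% in control mice. The means were 26.4 ± 0.565% in cKO mice and 26.4 ± 0.890% in control mice (SD, n = 4 each), 0.08 points apart, with an unadjusted limma p of 0.889 and an adjusted p of 0.998. The sign of that difference turned when any of 5 mice was left out, so no direction can be given. Its 54 kept CpGs were spread over 8 clusters of contrasting level. The 20 CpGs of the cluster at chr2:91078806-91079178, before the gene, had 1.97% in cKO mice and 1.46% in control mice, and 6 CpGs at chr2:91096532-91097196, inside it, had 0.710% in cKO mice and 0.609% in control mice. Between them, 3 CpGs at chr2:91089817-91089879 had 98.0% in cKO mice and 96.7% in control mice, and 4 CpGs at chr2:91086353-91086455 had 56.0% in cKO mice and 55.4% in control mice. Spi1 thus alternated between unmethylated and methylated stretches, and in these 4 the group means over all kept CpGs were less than 2 points apart. Over the 3 CpGs read in every mouse at chr2:91086353-91086455 they were farther apart. They were 54.8 ± 3.73% in cKO mice and 48.3 ± 6.37% in control mice (SD, n = 4 each). The 7 CpGs at chr2:91084412-91084639 averaged 5.51% in cKO mice and 15.6% in control mice, but on only 10 to 82 reads and with values missing in some mice. At chr2:91113397-91113431, 3 CpGs had 76.8% in cKO mice and 66.8% in control mice on 13 to 53 reads, also with values missing. At chr2:91115459-91115817, 7 CpGs had 94.8% in cKO mice and 94.1% in control mice.

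The tested 1 kb window of Spi1 with the smallest p stood at the far end, 2242 bp beyond the gene and inside Mybpc3, a gene for a heart muscle protein. The 1 kb window chr2:91118001-91119000, with 4 CpGs and 610 to 1696 reads a mouse, had 91.8, 84.9, 94.3 and 93.3% in cKO mice and 96.9, 97.4, 98.4 and 93.2% in control mice. The groups overlapped, at 91.1 ± 4.26% in cKO mice and 96.5 ± 2.26% in control mice (SD, n = 4 each). The difference of -5.41 points had an unadjusted p of 0.0399 and an adjusted p of 0.741, and without cKO mouse 28 it was -3.34. At CpG chr2:91118278 the levels were 89.8, 72.1, 86.5 and 86.7% in cKO mice and 94.3, 100, 98.0 and 100% in control mice, on 120 to 352 reads. All 4 cKO mice were below all 4 control mice there, with an unadjusted p of 0.00679 and an adjusted p of 0.740. Of the 16 tested CpGs of Spi1, 9 were lower and 7 higher in cKO mice, and the 3 with an unadjusted p under 0.05 were all lower. Over the genome, 53.7% of tested CpGs were lower in cKO mice, and 4.11% were lower with an unadjusted p under 0.05.

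Gfi1, a repressor needed for neutrophil formation that also restrains stem cell division, lies at chr5:107716655-107725805, and had 31 CpGs from 10 to 90%, the largest number of the 9 genes. Its window had 5.15, 5.91, 9.40 and 8.45% in cKO mice and 4.77, 2.91, 4.67 and 6.06% in control mice. The groups overlapped between 5.15 and 6.06%, with cKO mice 45 and 46 above all others and control mouse 34 below. The means were 7.23 ± 2.02% in cKO mice and 4.60 ± 1.29% in control mice (SD, n = 4 each). The difference of 2.62 points had an unadjusted limma p of 0.0354 and an adjusted p of 0.997. The unadjusted p was 0.132 without cKO mouse 45, 0.356 without control mouse 34, and 0.133 without both cKO mouse 25 and control mouse 34.

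The RefSeq table gives Gfi1 a pair of starts, both on the minus strand. Its 96 CpGs at chr5:107723508-107726830, which hold both starts, were unmethylated, at 0.271% in cKO mice and 0.506% in control mice. The longest run under 10% reached from these into the gene body. It held 105 CpGs over 5151 bp, at 0.854% in cKO mice and 0.522% in control mice. The CpGs added to the 96 lay at chr5:107721679-107721730, with no kept CpG between there and chr5:107723508. They had 12 to 61 reads and no value in cKO mouse 46, and reached 29.0% in cKO mouse 25 and 36% in cKO mouse 28. The higher cKO mean of the run rests on them, since the 96 were lower in cKO mice. The start region nearer the gene body is shown because 9 of its 10 CpGs, in capitals, were kept, while the farther one had 0 kept of 16. It is chr5:107724294-107724593, minus strand.
Gfi1 second start: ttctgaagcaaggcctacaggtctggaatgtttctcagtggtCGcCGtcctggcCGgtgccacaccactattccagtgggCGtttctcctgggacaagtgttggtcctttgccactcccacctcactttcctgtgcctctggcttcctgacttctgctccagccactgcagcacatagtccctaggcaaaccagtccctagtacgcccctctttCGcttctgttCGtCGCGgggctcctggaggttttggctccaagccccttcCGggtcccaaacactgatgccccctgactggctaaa
In the 8 of these CpGs read in every mouse the mean was 0.149 ± 0.214% in cKO mice and 0.195 ± 0.391% in control mice (SD, n = 4 each). In the 1 kb window chr5:107725001-107726000, too low to be tested, the level of 9 CpGs was 0.0252 ± 0.0503% in cKO mice and 1.43 ± 0.971% in control mice (SD, n = 4 each), and the groups did not overlap. How often groups do not overlap in windows under 5% was not counted over the genome. The control values came from a few CpGs that differed between mice. All methylated reads of control mouse 34 lay at chr5:107725087 (14.6%), and all those of control mouse 37 at chr5:107725054 (13.3%).

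Besides the 96 CpGs around the starts, 48 kept CpGs of Gfi1 lay in its body at chr5:107721030-107721731. All 9 of the higher CpGs with an unadjusted p under 0.05 stood there. The 1 kb window chr5:107721001-107722000 lies 2343 to 3342 bp downstream of the nearer start. On 8480 to 12732 reads a mouse over 30 CpGs it had 13.7, 14.2, 25.8 and 21.2% in cKO mice and 12.1, 8.21, 11.0 and 11.6% in control mice. Every cKO mouse was above every control mouse, by little for cKO mice 25 and 28 and by much for 45 and 46. The means were 18.8 ± 5.83% in cKO mice and 10.7 ± 1.75% in control mice (SD, n = 4 each), 8.02 points apart. The unadjusted p was 0.00143 and the adjusted p 0.589, so the window was not called. Leaving out 1 mouse at a time gave differences of 6.40 to 9.70 points with unadjusted p from 0.000238 to 0.00525 and adjusted p from 0.356 to 0.994. Without cKO mouse 25 and control mouse 34 the difference was 8.65 points with an adjusted p of 0.277. These mice had the lowest ratios of methylated to unmethylated coverage. With equal weight for each CpG instead of each read, the levels were 16.0, 17.3, 30.3 and 27.5% in cKO mice and 14.1, 8.78, 13.7 and 18.5% in control mice, and the groups overlapped.

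Of the 30 CpGs of this window, which was picked by its p, 29 were higher on average in cKO mice. An unadjusted p under 0.05 in the quasi-binomial model was reached by 9, and the groups did not overlap at 1. The highest of the 8 mice was cKO mouse 45 alone at 17 of the 30 CpGs and cKO mouse 46 alone at 7, and control mouse 34 alone was the lowest at 11. CpGs so close share DNA fragments and are not independent of each other. Of the 30, 26 stood within 169 bp, at chr5:107721503-107721671, where the CpG averages of single mice were 11.7, 16.0, 28.5 and 22.1% in cKO mice and 10.3, 9.05, 10.9 and 11.6% in control mice. Control mice were close together there, with an SD of 1.09 points against 7.31 in cKO mice. The CpG with the smallest p of all 114, chr5:107721630, had 8.54, 13.9, 21.0 and 12.8% in cKO mice and 2.32, 0.324, 0 and 1.59% in control mice, on 195 to 398 reads. All cKO mice were above all control mice at it, with an unadjusted p of 0.0028 and an adjusted p of 0.716. All 39 tested CpGs of Gfi1 lay in this same 1 kb window, chr5:107721001-107722000. Of them, 34 were higher in cKO mice and 5 lower, against 46.3% higher and 53.7% lower over the genome. That count describes the window picked by its p and not the gene as a whole. The 39 lie close together and share DNA fragments.

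**Figure D3:**
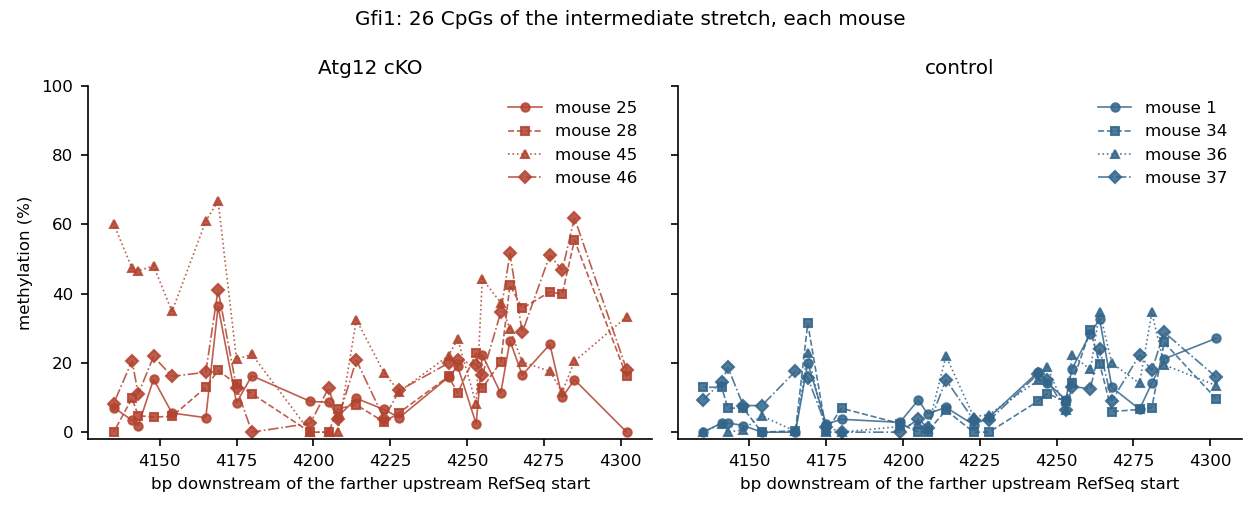
Methylation (%) of the 26 CpGs of the dense stretch of Gfi1 against the distance in bp downstream of the farther upstream RefSeq start, with 1 line for each mouse, Atg12 cKO mice in the left panel and control mice in the right. The averages of cKO mouse 45 (28.5%) and cKO mouse 46 (22.1%) are the highest, but at some CpGs their lines fall below those of other mice. The 4 control mice average 9.05 to 11.6%.

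Gfi1b, the relative of Gfi1 that acts in red cell and platelet formation, lies at chr2:28609450-28621982. Its window had 57.9, 57.0, 71.7 and 56.1% in cKO mice and 62.6, 47.6, 63.0 and 61.7% in control mice. The means of 60.7 ± 7.40% in cKO mice and 58.7 ± 7.46% in control mice (SD, n = 4 each) included 2 distant values, cKO mouse 45 above and control mouse 34 below. The difference of 1.96 points had an unadjusted limma p of 0.678 and an adjusted p of 0.997, and it was -1.72 without cKO mouse 45 and -1.51 without control mouse 34. None of its 19 kept CpGs was under 10%, and its RefSeq start region had 7 CpGs of which 0 were kept. The 5 CpGs of chr2:28620001-28621000, a window 982 to 1981 bp downstream of that start, lie in the overlapping lncRNA gene Gm52548. They had 46.2, 42.6, 74.6 and 37.7% in cKO mice and 49.3, 22.0, 51.8 and 45.1% in control mice. The same mice, cKO 45 and control 34, were the extremes, and the difference (50.3 ± 16.6% in cKO mice, 42.0 ± 13.7% in control mice, SD, n = 4 each) had an unadjusted p of 0.126 and an adjusted p of 0.818. The 8.25 points between the means fell to 0.134 without cKO mouse 45, and were 1.55 without control mouse 34, 2.91 without that mouse and cKO mouse 25, and 12.5 without cKO mouse 46. Its CpG with the smallest p, chr2:28620815, had 51.0 ± 16.3% in cKO mice and 41.8 ± 13.9% in control mice (SD, n = 4 each), a difference of 9.13 points that was 1.39 without cKO mouse 45, 3.26 without control mouse 34 and 3.46 without control mouse 34 and cKO mouse 25.

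A pair of neighbouring CpGs in Gfi1b varied in opposite directions between mice. At chr2:28616723 the levels were 40.2, 0, 0 and 54.7% in cKO mice and 67.2, 63.2, 49.4 and 51.5% in control mice. At chr2:28616773 they were 59.1, 97.7, 100 and 45.7% in cKO mice and 27.9, 35.0, 49.2 and 49.0% in control mice. Each mouse that was low at the one was high at the other, so that their average was 49.7 ± 0.586% in cKO mice and 49.1 ± 1.13% in control mice (SD, n = 4 each). Neither CpG passed an unadjusted p of 0.05, and the pair was singled out after its values were seen.

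Klf4, which promotes monocyte formation, lies at chr4:55527137-55532475. Its window had 1.61, 1.31, 0.957 and 1.36% in cKO mice and 1.63, 1.21, 1.46 and 1.29% in control mice. At 1.31 ± 0.269% in cKO mice and 1.40 ± 0.187% in control mice (SD, n = 4 each) it was under the tested range, and the exact two-sided permutation p was 0.657. Of 172 kept CpGs, 167 were under 10%, with 118 in 1 run of 2298 bp over the start. The start region is shown for its density: it holds 40 CpGs, of which 11 were kept, in capitals, and 96.1% of RefSeq start regions of its length hold fewer. It is chr4:55532426-55532725, minus strand.
Klf4 start: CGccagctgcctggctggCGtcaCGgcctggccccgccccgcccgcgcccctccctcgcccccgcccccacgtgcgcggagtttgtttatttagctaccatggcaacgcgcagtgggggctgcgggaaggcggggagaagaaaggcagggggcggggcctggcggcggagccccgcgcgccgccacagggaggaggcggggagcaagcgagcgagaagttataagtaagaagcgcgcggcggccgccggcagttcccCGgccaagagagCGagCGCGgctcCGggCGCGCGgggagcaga
The 4 of these CpGs read in every mouse averaged 0.479% in cKO mice and 0.0418% in control mice, and cKO mouse 25 alone, at 1.92%, set the cKO mean. Beyond the start, 27 kept CpGs in the neighbouring lncRNA gene Gm12506 were at 0.130%. The intermediate CpGs of Klf4 were in its body. The 1 kb window chr4:55529001-55530000, beginning 2475 bp downstream of the start, had 14.5, 10.5, 9.23 and 21.3% in cKO mice and 18.7, 14.3, 25.1 and 21.8% in control mice over 3 CpGs. The level was lower on average in cKO mice, at 13.9 ± 5.43% against 19.96 ± 4.61% in control mice (SD, n = 4 each), but the groups overlapped, with an unadjusted p of 0.136 and an adjusted p of 0.827. The Klf4 CpG with the smallest p, chr4:55529821, had 9.37 ± 6.89% in cKO mice and 17.0 ± 4.27% in control mice (SD, n = 4 each). Its groups overlapped, with an unadjusted p of 0.0976 and an adjusted p of 0.777 in the quasi-binomial model.

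Egr1, an immediate-early gene linked to macrophage fate and to stem cell quiescence, lies at chr18:34861207-34864956 and was the least methylated. All 58 kept CpGs were under 10%, in 1 run of 1930 bp whose highest CpG averaged 2.68%. Its window had 0.136, 0.276, 0.208 and 0.152% in cKO mice and 0.198, 0.0433, 0.151 and 0.0432% in control mice. The means were 0.193 ± 0.0634% in cKO mice and 0.109 ± 0.0783% in control mice (SD, n = 4 each), the groups overlapped, and the exact two-sided permutation p was 0.171.

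**Figure D4:**
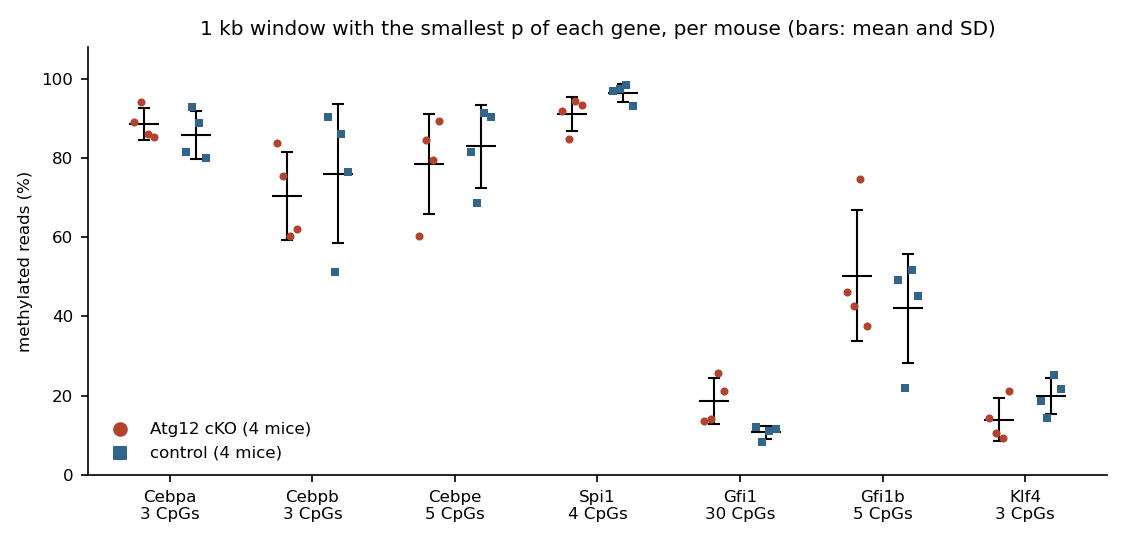
Percentage of methylated reads in the tested 1 kb window with the smallest p of each of 7 genes, with Atg12 cKO mice (circles) left of control mice (squares) and bars for mean and SD. The groups are apart only in the Gfi1 window, at 13.7 to 25.8% in cKO mice and 8.21 to 12.1% in control mice, and overlap in the other 6.

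The 6 start regions of Cebpa, Cebpb, Gfi1, Gfi1b and Klf4 were searched on both strands for letters that factors of this set are known to bind, among 32851 RefSeq start regions of the same length. GCGNGGGCG, bound by Egr1, occurs in 5.55% of all start regions. It has 1 match in that of Cebpa and 2, which do not overlap, in that of Klf4. TTGCNNAA, bound by C/EBP proteins, occurs in 10.8% and has 1 match in the farther Gfi1 start region. GAGGAAGT, bound by PU.1 (3.20%), and AATCANNGC, bound by Gfi1 proteins (3.28%), had 0 matches in these windows. A match is a string of letters and was not tested as a binding site.

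A wider list held 50 other regulators of myeloid cells. All 50 were measured, 29 had gene windows under 10%, and their median level was 7.34%. Of 32 in the tested range, 14 were lower and 18 higher in cKO mice, against 52% lower and 48% higher over the genome, 0 were called by limma and 0 had an unadjusted p under 0.05, against 4.38% of all tested gene windows. The median difference was 0.05 points, against -0.03 over all tested gene windows. Averaged over the list, cKO mice had 13.7 ± 0.0782% and control mice 13.7 ± 0.395% (SD, n = 4 each). The 3 smallest p belonged to Etv6, a repressor needed by adult stem cells, at 47.8 ± 0.772% in cKO mice and 48.8 ± 0.555% in control mice, to Gata2, a stem cell factor, at 10.6 ± 1.10% in cKO mice and 9.63 ± 1.03% in control mice, and to Irf4, a factor of B cells and dendritic cells, at 26.3 ± 1.68% in cKO mice and 27.5 ± 1.01% in control mice (SD, n = 4 each). Their unadjusted limma p were 0.132, 0.182 and 0.206, all with an adjusted p of 0.997.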

How the data were processed

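Bisulfite libraries of 8 mice were compared, 4 Atg12 cKO and 4 control. The deposited tables list, for each mouse, the cytosines of CpGs with the authors' coverage, a count of reads, and, per the file headers, the percent of reads with C and with T; no listed cytosine had under 10 reads. CASAVA 1.8.2, Bismark and the mm10 build are named in the submitters' processing notes; for trimming, filters and duplicates, steps were not given in the sources used here. Per the labels' protocols, size selection was modified for little DNA, which can change the fragments covered.

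Methylated reads were recovered as coverage times percent, rounded; between 99.97 and 99.98% of the products were whole within 0.1. Both strands of a CpG were added. Genes came from the RefSeq table of GRCm38.p6, without exons, so exons, introns and untranslated regions are not told apart, and start regions (250 bases before to 50 after a start) from RefSeq promoters. Those of Cebpd, Cebpe, Spi1 and Egr1 were not used here.

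CpGs and 1 kb windows on chromosomes 1 to 19 with a mean level of 5 to 95% were tested with a quasi-binomial logistic model of reads on genotype, its dispersion moderated (limma 3.58.1, R 4.3.3) with a floor of 1. Windows used CpGs with 10 reads in all 8 mice, at least 3 of them. Gene windows with at least 5 such CpGs were tested with limma's moderated test with trend on unweighted means. Benjamini-Hochberg adjustment at 0.05 ran over all features of the genome. Gene windows outside 5 to 95% had an exact two-sided permutation test. The models were tested on simulated data. Other steps used Python 3.11.15.

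For each gene the text names its window. Where available, it also names the start region, the longest run of CpGs under 10%, and the tested 1 kb window and CpG with the smallest p. The 9 genes and the other lists were chosen with earlier results of these data known. Alternatives covered coverage limits, mice left out, other models and other windows.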

Additional observations from a re-analysis of the deposited data

Results flagged for a closer look

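In 46 checks of a group of 4 mice, over 23 values of the 9 genes, 5 had 1 mouse far from the other 3 by Dixon's test at 95%. Chance gives this in about 1 in 20 groups of independent, normally distributed values. These values are percentages, some at exactly 0%, and several come from the same gene or were picked by their p. That rate is therefore no measure of how many to expect here. For the Gfi1b gene window, cKO mouse 45 was far above the other cKO mice at 71.7%, the nearest being 57.9%, and control mouse 34 was far below the other control mice at 47.6%, the nearest being 61.7%. The same mice stood apart at the Cebpb CpG chr2:167687001, with cKO mouse 45 at 29.6% and the other cKO mice at 0%, and control mouse 34 at 0% with the nearest control mouse at 55.2%. For the Cebpd gene window, control mouse 1 was lowest at 0.106%, the nearest control mouse having 0.300%. Of these mice, cKO mouse 45 had the fewest cytosines listed (2038266) and control mouse 34 the lowest ratio of coverage of methylated to unmethylated CpGs (0.365). The part of library quality in these values was not tested.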

How the results depend on the processing

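No CpG, 1 kb window or gene window named for the 9 genes was called under any of 340 alternatives, and the lowest adjusted p among them was 0.118. The gene windows of Cebpd, Klf4 and Egr1, below the tested range, had a model p only with no limit on the mean level. Under their other alternatives they could not be called, and only the direction of the difference was followed. In 320 of the 340 the direction was the one reported, and in 20, over 7 results, it turned. All 100 for the named CpGs kept their direction, but these CpGs were picked by their p in the same mice, which favours that. The Cebpb gene window difference turned to -0.0748 at a coverage minimum of 20 reads, -0.16 without both libraries of lowest coverage ratio (cKO 25 and control 34) and -0.0242 with 2 kb on either side, and ranged from -0.0473 to 0.176 with 1 mouse left out. The Spi1 gene window turned to -0.45 with CpGs covered in at least 3 mice of each group and -4.90 with reads summed, and ranged from -0.91 to 0.41 with 1 mouse left out. The Gfi1b gene window turned to -1.12 without both libraries and ranged from -1.72 to 3.49 with 1 mouse left out. Cebpa turned to 0.0862, and the Cebpe gene window to 2.64, with CpGs covered in at least 3 mice of each group, and Cebpe to 0.0873 with reads summed. The Cebpe 1 kb window ranged from -9.27 to 1.51 with 1 mouse left out and was 1.51 without cKO 25. The Cebpd gene window ranged from -0.101 to 0.0337 with 1 mouse left out. The causes were not tested.

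Over the genome, 20 CpGs were called. The count was 39 at 20 reads, 1 without the most covered CpGs, and 0 with no limit on the mean level, with limma on log2 ratios and with the unmoderated model. With 1 mouse left out it ranged from 1 (without cKO 25) to 184 (without cKO 45), and was 38 without control 1 and 47 without control 34. For 1 kb windows the count was 0, and ranged from 0 to 32 (without control 34; 7 without cKO 45), and was 6 without cKO 25 and control 34 together. It was 0 for gene windows under all alternatives. No paired analysis was possible because the mouse numbers of the 2 groups are not shared. Coverage is in reads without molecular identifiers, so precision set by DNA molecules is unknown, and 4 mice a group and a median range of 40.9 points at intermediate CpGs limit what single CpGs can show.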

Other observations

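Beyond the 5 kb limits, 60 further 1 kb windows within 50 kb of the 9 genes were measured. Of 23 in the tested range, 16 were lower and 7 higher in cKO mice, against 52.6% lower and 47.4% higher of all tested 1 kb windows. None was called, as 0% of all were, and 4 had an unadjusted p under 0.05, against 6.5% of all, with adjusted p from 0.677 to 0.747. Of the 23, 9 lay near Cebpb and 6 near Spi1. All 4 lay near Cebpb or Spi1 and inside other genes. Near Cebpb, chr2:167731001-167732000 in Gm38464 had 75.0 ± 14.9% in cKO mice and 92.5 ± 7.23% in control mice, and chr2:167648001-167649000 in Tmem189 had 91.6 ± 3.26% in cKO mice and 95.5 ± 1.55% in control mice (SD, n = 4 each). Near Spi1, chr2:91138001-91139000 in Madd, an adaptor of tumour necrosis factor signalling, had 47.2 ± 17.0% in cKO mice and 62.7 ± 7.10% in control mice. In Slc39a13, a zinc transporter gene, chr2:91068001-91069000 was higher in cKO mice, with 93.8 ± 1.92% in cKO mice and 85.4 ± 7.62% in control mice. The unadjusted p were 0.0137 for Gm38464, 0.0281 for Tmem189, 0.0439 for Madd and 0.0342 for Slc39a13, in the quasi-binomial model moderated with limma. These windows were picked from the 23 by their p.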
